A study of Mus musculus with 9 samples.

Results

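The integrin and extracellular matrix genes described here are the integrin alpha and beta subunits, the laminin chains, the collagen chains and fibronectin of a mouse intestinal epithelial cell line. They were chosen by symbol, as every gene whose name begins with Itga, Itgb, Lama, Lamb and a number, Lamc, or Col with a number and a, plus Fn1. The array measured 82 such genes with 168 probe sets that carry a single gene symbol, of 18193 genes in all. Each gene was read from its probe set with the highest mean, and 32 of the 82 met the level minimum for testing, log2 4 on 3 or more of the 9 arrays. Those 32 were 7 integrin alpha genes, 5 integrin beta genes, 5 laminin genes, 12 collagen genes, Fn1, and a pair that the prefixes catch although they encode no subunit, Itgb1bp1 and Itgb3bp.

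Integrins are cell-surface receptors made of an alpha and a beta subunit, which pair before they reach the membrane and hold cells to the matrix beneath them. Laminins are trimers of an alpha, a beta and a gamma chain and, with the network of type IV collagen, form the basement membrane on which intestinal epithelium rests. Fibronectin is a soluble and fibrillar matrix protein bound by integrins that recognise an RGD peptide, among them those with the alpha V subunit, and the integrin of alpha V with beta 6 is known in epithelium for releasing active TGF-beta.

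The cells were m-ICcl2, a small intestinal epithelial line of C57BL/6 origin with an SV40 large T antigen transgene, derived from fetal intestine and grown on collagen-coated flasks. A single line was used, and all groups carry the transgene. Cells were left unstimulated, given 100 ng/mL of lipopolysaccharide (LPS, a cell wall component of Escherichia coli) for 6 h, or given the same LPS for 6 h and then kept for 90 h without it, a state that the series design calls tolerant, with 3 arrays each. The labels give no culture time for the unstimulated cells, so the effects of time in culture and of LPS cannot be told apart in tolerant cells.

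Replicate 1 stood apart in every condition. Deviations from the condition means correlated at -0.74 to -0.37 across genes between replicate 1 and the other replicates, and a control for 18S ribosomal RNA (its 5' end) gave log2 7.27 to 10.24 on replicate 1 arrays against 3.38 to 5.76 on the others. Of the 32 genes, 15 had their highest value on replicate 1 in all 3 conditions and 8 their lowest there, against 28.8% and 22.4% of all 9431 tested genes. Where a fit that blocks on the replicate number changed the call of one of the 32 genes, both calls are given, and for other gene lists the counts of both fits are given. Of 12 epithelial markers 9 passed the level minimum, with Krt8 at 12.72 to 13.51 on all arrays, but Cdh1, Cldn7 and Krt19 stayed below log2 3 on all 9, and the mesenchymal marker Vim lay at 13.23 to 13.51.

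The main comparison asked how tolerant cells differed from unstimulated cells. Among the 32 measured genes 7 rose (Col6a1, Itgb6, Lamc1, Col7a1, Itgav, Itgb1 and Itga1) and 4 fell (Col4a4, Col4a3, Fn1 and Itgb1bp1) at a Benjamini-Hochberg adjusted p below 0.05 in limma, adjusted over all tested genes. That is 34.4% of the 32, where 26.2% of all tested genes were called, 14% higher and 12.2% lower. With the replicate block 14 rose and 5 fell, 59.4% where 48.6% of all tested genes were called. Col7a1 and, with the block, Itgb3 are in these counts although they met the level minimum only with the tolerant arrays, where they were high. The median log2 change was 0.33 over the 32 genes and -0.07 over all tested genes. In a bulk RNA measurement a change in the share of cells of one kind and a change in RNA per cell cannot be told apart.

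**Figure D1:**
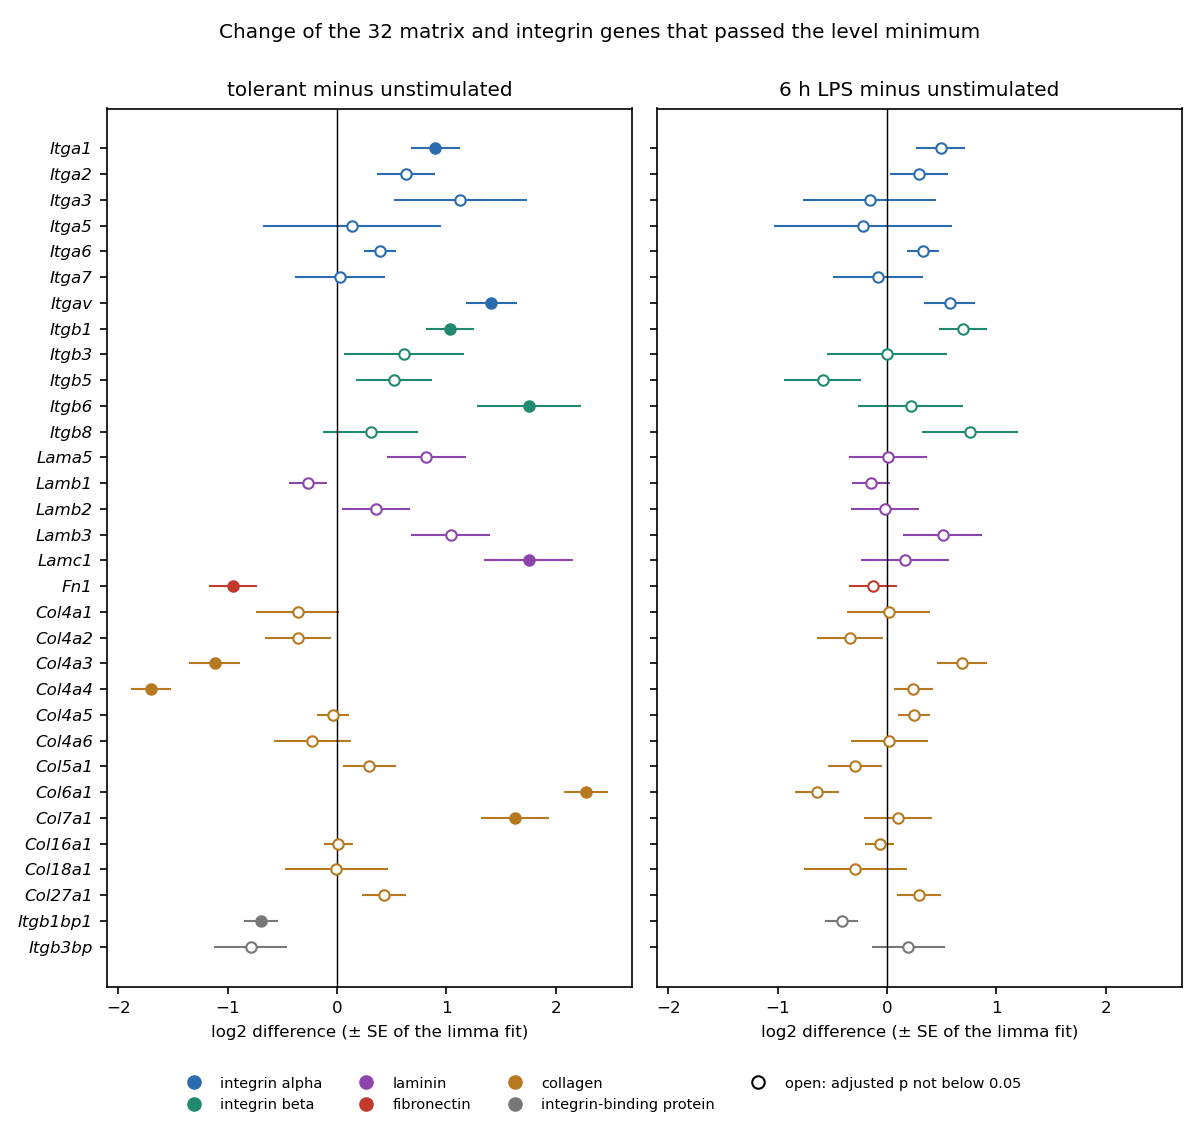
Log2 differences with the standard error of the limma fit for the 32 genes that passed the level minimum, tolerant minus unstimulated on the left and 6 h LPS minus unstimulated on the right, coloured by family. Filled points passed an adjusted p of 0.05, which 11 genes did in tolerant cells and none did at 6 h.

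Of the 7 measured integrin alpha genes 2 rose in tolerant cells and none fell, 28.6% where 26.2% of all tested genes were called, and with the block 4 rose, 57.1% where 48.6% of all were called. Itgav encodes the alpha V subunit, which pairs with several beta subunits including beta 6. Its log2 level was 9.75, 10.11 and 10.36 on the unstimulated arrays, 10.31, 11.02 and 10.60 at 6 h of LPS, and 11.30, 11.56 and 11.58 on the tolerant arrays. All 3 tolerant arrays lay above all 3 unstimulated ones and also above all 3 arrays at 6 h. The rise over unstimulated cells was 2.66-fold (log2 change 1.41 ± 0.23 SE; adjusted p = 0.00313). A weaker probe set of Itgav rose by 1.88 log2, and another near the level minimum by 0.43.

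Itga1 encodes the alpha 1 subunit, which pairs with beta 1 and binds collagens, type IV among them. It read 8.34, 8.52 and 8.71 in tolerant cells, against 7.30, 7.67 and 7.91 in unstimulated cells, without overlap. The 1.86-fold rise (adjusted p = 0.0191) rested on the probe set used, since the other differed by 0.28 log2 in this comparison and was higher by 1.49 log2 at 6 h. The call was lost without unstimulated replicate 1 (adjusted p = 0.0603) or 2 (0.0573), without tolerant replicate 2 (0.0629) or 3 (0.0759), and with the mean over probe sets (0.0937).

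Itga3, whose product binds laminins as a partner of beta 1, read 11.75, 10.22 and 10.38 in tolerant cells and 10.39, 9.25 and 9.33 in unstimulated cells. Its groups overlapped because replicate 1 was the highest in both. Each tolerant array was nonetheless 0.97 to 1.36 log2 above the unstimulated array of the same number, and the adjusted p was 0.208 without the replicate block and 0.0016 with it. Itga6, another laminin receptor subunit, differed by 0.39 log2 (adjusted p = 0.0802, or 0.0213 with the block).

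The remaining alpha genes did not pass. Itga2, a collagen receptor subunit, differed by 0.63 log2 at levels of 3.67 to 5.08, Itga5, the fibronectin receptor subunit, by 0.14, and Itga7, known as the laminin receptor subunit of muscle, by 0.03. Itga5 reached log2 4 on the 3 replicate 1 arrays only, at 5.05 unstimulated, 5.08 at 6 h and 5.85 in tolerant cells, and lay at 3.09 to 3.51 on the other 6. Below the level minimum were Itga2b, Itga4, Itga8, Itga9, Itga10 and the leukocyte integrin genes Itgae, Itgal, Itgam and Itgax.

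Among the 5 measured integrin beta genes 2 rose in tolerant cells (14% of all tested genes were higher and 26.2% called), and 4 rose with the block, which called 48.6% of all genes. These 4 include Itgb3, which met the level minimum only with the tolerant arrays. Itgb1 encodes beta 1, the common partner of the collagen, laminin and fibronectin receptor alpha subunits. Tolerant arrays read 10.46, 10.79 and 10.47, against 9.38, 9.86 and 9.39 on unstimulated arrays, with 10.00, 10.61 and 10.10 at 6 h. The tolerant and unstimulated groups did not overlap, and the rise was 2.05-fold (log2 change 1.03 ± 0.22 SE; adjusted p = 0.00982). A further strong probe set rose by 0.97 log2 and a weak one by 0.17, and the call was lost with the mean over all probe sets (adjusted p = 0.0569).

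Itgb6 encodes beta 6, an epithelial subunit that pairs with alpha V. Its levels were 9.42, 8.33 and 7.90 in tolerant cells and 7.67, 6.65 and 6.07 in unstimulated cells. The groups did not overlap although each spanned over 1 log2, with replicate 1 highest in both. The rise was 3.37-fold (log2 change 1.75 ± 0.48 SE; adjusted p = 0.0262, or 0.000208 with the block), and 1.68 to 1.83 log2 within the same-numbered pairs. Its other probe set rose by 2.09 log2. The call was lost without unstimulated replicate 2 (adjusted p = 0.0842) or 3 (0.0806), without tolerant replicate 1 (0.0681) or 2 (0.0611), and without a level minimum (0.0956).

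The other beta genes measured, all partners of alpha V, did not pass without the block. Itgb5 differed by 0.52 log2 (adjusted p = 0.309, or 0.046 with the block), and by less, 0.11, 0.42 and 0.36 log2, on its other probe sets. Itgb3 differed by 0.61 log2 (adjusted p = 0.454 without the block). Itgb3 lay below log2 4 in replicates 2 and 3 of unstimulated cells, at 3.69 and 3.43, and at 4.23 and 4.25 in those of tolerant cells. It met the level minimum only through the tolerant arrays, so its call with the block is counted but given without a value. Itgb8 differed by 0.31 log2 (adjusted p = 0.652). Itgb4, whose product joins the hemidesmosome with alpha 6, reached log2 4 on a single array, tolerant replicate 1 at 4.72, and was not tested. Itgb2, Itgb2l and Itgb7 also lay below the minimum, as did Itgbl1 and Itgb1bp2, which encode no integrin subunit.

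Itgb1bp1 encodes ICAP1, a cytoplasmic protein that binds the tail of beta 1 and is known to restrain its activation. Tolerant arrays read 9.04, 8.93 and 8.91 and unstimulated arrays 9.64, 9.67 and 9.66. The groups lay well apart, and the fall was 1.62-fold (log2 change -0.69 ± 0.15 SE; adjusted p = 0.0112). Itgb3bp, named for binding beta 3 and also a centromere protein, differed by -0.79 log2 (adjusted p = 0.115, or 0.002 with the block).

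**Figure D2:**
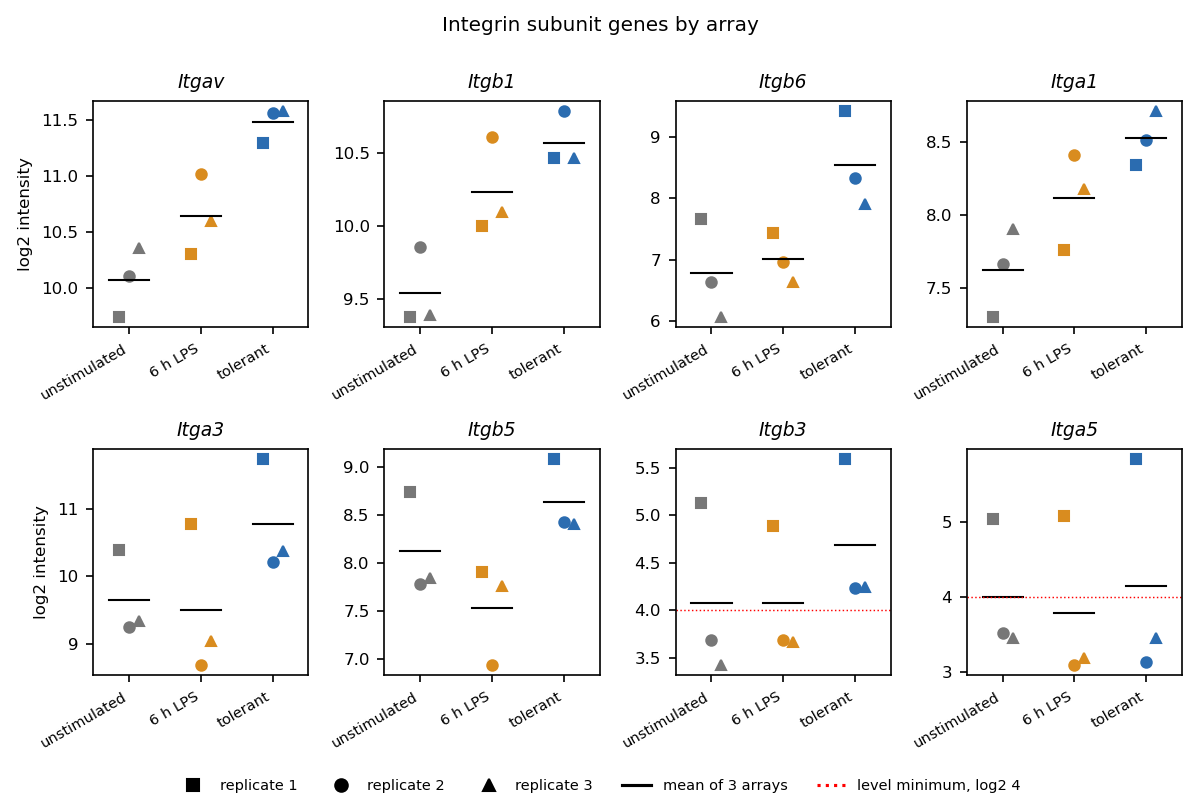
Log2 intensity of 8 integrin genes on each array, by condition, with a symbol for each replicate number, a bar for the mean of 3 arrays, and each panel on its own scale. In Itgav, Itgb1, Itgb6 and Itga1 the tolerant arrays lie above the unstimulated ones, and in Itga5 the replicate 1 arrays alone exceed log2 4.

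Of 5 measured laminin genes 1 rose, 20% where 26.2% of all tested genes were called, and 3 rose with the block, 60% where 48.6% were called. Lamc1 encodes the gamma 1 chain, shared by most laminins. It read 7.10, 6.28 and 5.42 in unstimulated cells, 6.51, 6.32 and 6.46 at 6 h, and 8.60, 7.77 and 7.67 in tolerant cells. Every tolerant array was above every other array, and the rise over unstimulated cells was 3.36-fold (log2 change 1.75 ± 0.40 SE; adjusted p = 0.0132). The other probe set of Lamc1 rose by 0.76 log2, and the call was lost with the mean over probe sets (adjusted p = 0.071) and without a level minimum (0.0531).

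Lama5, the alpha 5 chain of adult epithelial basement membranes, read 11.48, 10.50 and 10.67 in tolerant cells and 10.72, 9.85 and 9.63 in unstimulated cells. Overlap came from replicate 1, and the difference of 0.82 log2 passed with the block (adjusted p = 0.0021) but not without it (0.126). Lamb3, a beta chain of epithelial laminin, read 7.11, 6.21 and 6.20 in tolerant cells, against 6.06, 4.98 and 5.36 in unstimulated cells. These did not overlap, with a difference of 1.04 log2 (adjusted p = 0.0635, or 0.000873 with the block, and 0.0337 after quantile normalization).

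Neither of the other beta chains passed. Lamb1 differed by -0.27 log2 (adjusted p = 0.291) and Lamb2 by 0.36 log2 (0.444). Lama1, Lama2, Lama3, Lama4 and Lamc3 lay below log2 3 on all 9 arrays.

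Fn1, the fibronectin gene, moved the other way from the alpha V and beta 1 genes. Its levels were 10.88, 10.41 and 10.33 in unstimulated cells, 10.62, 10.16 and 10.46 at 6 h, and 9.89, 9.40 and 9.47 in tolerant cells. Each tolerant array lay below all 6 others, and the fall from the unstimulated level was 1.94-fold (log2 change -0.95 ± 0.22 SE; adjusted p = 0.0131). The call was lost without tolerant replicate 2 (adjusted p = 0.0588) or 3 (0.0532), with changes of -0.86 and -0.89 log2.

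Of the 12 measured collagen genes 2 rose and 2 fell, 33.3% where 26.2% of all tested genes were called, and with the block 3 rose and 2 fell, 41.7% where 48.6% were called. Col6a1, the alpha 1 chain of the beaded-filament collagen VI, had the largest change among the 32 genes. It read 5.22, 5.16 and 5.33 in unstimulated cells, 4.50, 4.71 and 4.58 at 6 h, and 7.94, 7.40 and 7.19 in tolerant cells. The 3 conditions did not overlap, and the rise over unstimulated cells was 4.84-fold (log2 change 2.27 ± 0.20 SE; adjusted p = 0.00021). Col6a2 and Col6a3, the genes of the chains with which it assembles, read at most 2.06 on any array. Col7a1, whose product forms the anchoring fibrils of stratified epithelium, read 5.61, 5.63 and 5.26 in tolerant cells and 3.71, 3.36 and 4.55 in unstimulated cells. Of the unstimulated arrays 2 of 3 lay below log2 4. Col7a1 met the level minimum only through the tolerant arrays, so it is counted among the called genes but given here without a test.

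**Figure D3:**
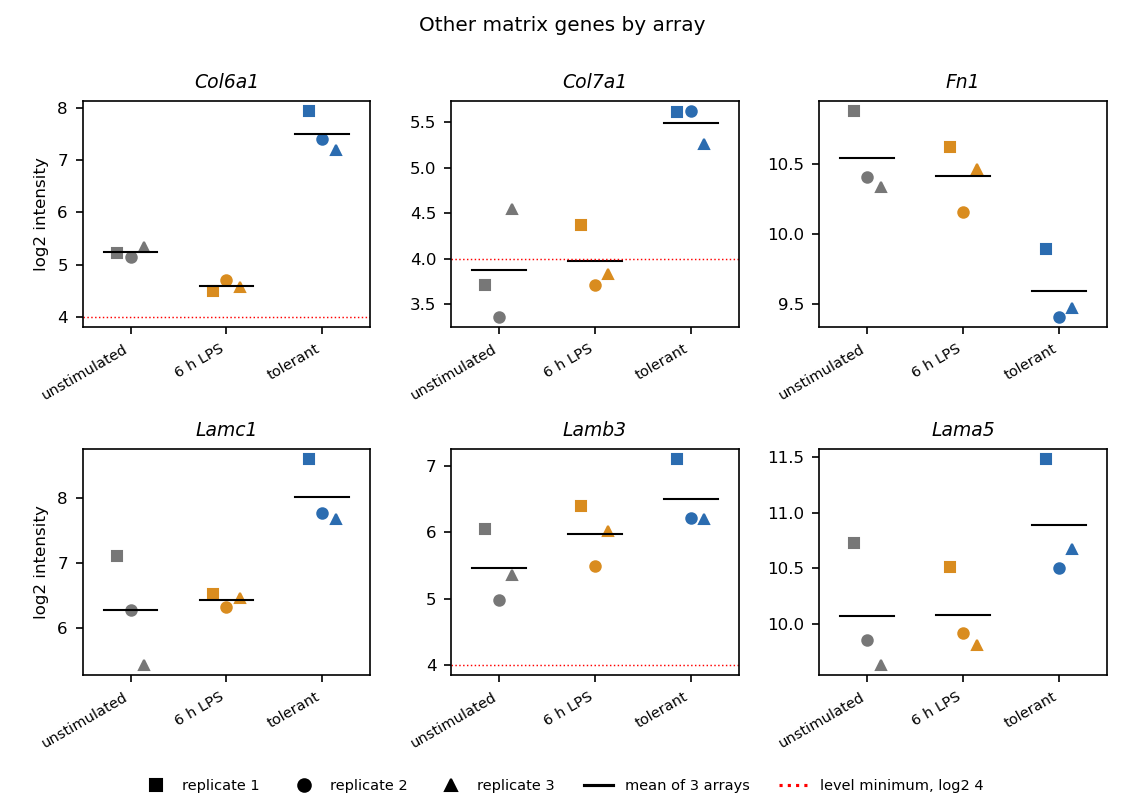
Log2 intensity of Col6a1, Col7a1, Fn1 and 3 laminin genes on each array, by condition, with a bar for the mean of 3 arrays and each panel on its own scale. The tolerant arrays lie above all others in Col6a1, Col7a1 and Lamc1 and below all others in Fn1.

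The type IV collagen genes lie as 3 pairs of neighbours in the mouse genome, each transcribed away from the other: Col4a1 with Col4a2 on chromosome 8, Col4a3 with Col4a4 on chromosome 1, and Col4a5 with Col4a6 on the X chromosome. The alpha 3 and alpha 4 chains are known to assemble with alpha 5 in the kidney glomerulus, whereas alpha 1 and alpha 2 form the network of most basement membranes. Col4a3 and Col4a4 were the 2 of these 6 genes that fell in tolerant cells.

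Col4a4 read 9.49, 9.38 and 9.60 in unstimulated cells, 9.81, 9.79 and 9.59 at 6 h, and 7.47, 7.86 and 8.04 in tolerant cells. It fell 3.25-fold against unstimulated cells (log2 change -1.70 ± 0.18 SE; adjusted p = 0.000446), and its other probe sets fell by 1.71 and 1.87 log2. Col4a3 read 7.19, 7.21 and 7.29 in unstimulated cells, 7.86, 8.26 and 7.64 at 6 h, and 5.68, 6.26 and 6.39 in tolerant cells. It fell 2.17-fold (log2 change -1.12 ± 0.23 SE; adjusted p = 0.00815), and the 3 conditions did not overlap. Against unstimulated cells Col4a1 differed by -0.36 log2 (adjusted p = 0.526), Col4a2 by -0.35 (0.426), Col4a5 by -0.04 (0.869) and Col4a6 by -0.23 (0.681), and the arrays of these 4 overlapped. Another probe set of Col4a1 went the other way, by 0.13 log2.

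**Figure D4:**
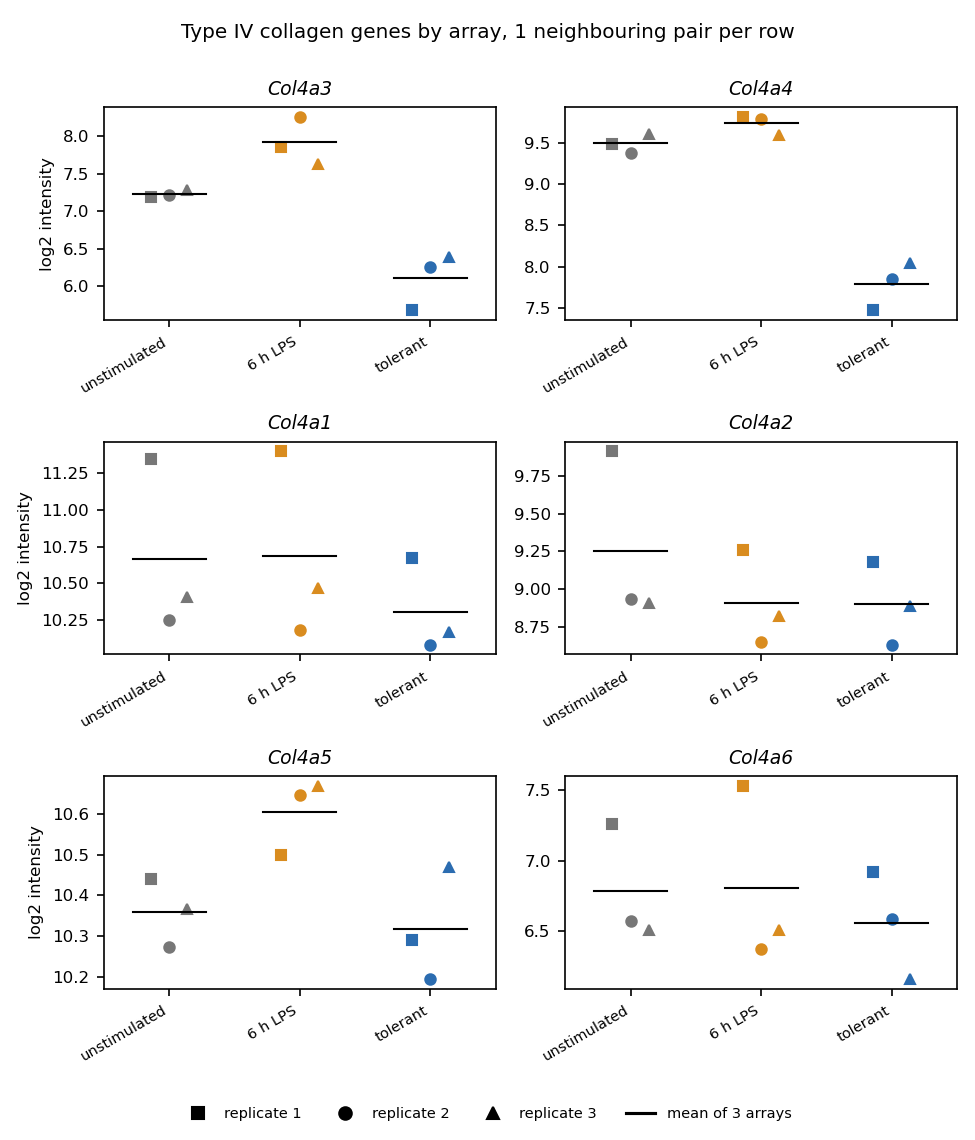
Log2 intensity of the 6 type IV collagen genes on each array, by condition, with 1 neighbouring pair per row, a bar for the mean of 3 arrays and each panel on its own scale. In Col4a3 and Col4a4 all tolerant arrays lie below the other 6, and in the other 4 genes the tolerant and unstimulated arrays overlap.

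The remaining collagen genes did not pass in tolerant cells. Col5a1, of a fibril collagen, differed by 0.29 log2 and by -0.45 on a weaker probe set. Col18a1, which yields endostatin, differed by -0.01 log2 and by -0.46 on another strong probe set. Col16a1, at 3.85 to 4.06 on all arrays, differed by 0.01. Col27a1 differed by 0.43 log2 (adjusted p = 0.152, or 0.041 with the block). A further 30 collagen genes lay below the level minimum, among them Col1a1, Col1a2, Col3a1 and Col17a1. Outside the minimum, the third-highest array read 3.18, 3.20 and 3.23 in the nearest genes, Col26a1, Itga9 and Col9a3. Inside it, the third-highest array of Col16a1 read 4.0, at the cut itself, and those of Itga2 and Itga7 read 4.54 and 4.64.

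The stretches before 3 start sites are shown: that of Col4a4, because it holds the annotated start of its neighbour Col4a3, which fell with it, that of Col6a1, the largest rise, and that of Itgb1, the common beta subunit. They are RefSeq sequences of build GRCm38.p6, the 250 bases before the start, on the coding strand, at chr1:82586850-82587099 (minus strand), chr10:76726045-76726294 (minus strand) and chr8:128685404-128685653 (plus strand). Capitals mark matches on either strand to 3 motifs, TGANTCA of AP-1, the GC box GGGCGG, and CATTCC of TEAD factors, which did not overlap one another.
Col4a4: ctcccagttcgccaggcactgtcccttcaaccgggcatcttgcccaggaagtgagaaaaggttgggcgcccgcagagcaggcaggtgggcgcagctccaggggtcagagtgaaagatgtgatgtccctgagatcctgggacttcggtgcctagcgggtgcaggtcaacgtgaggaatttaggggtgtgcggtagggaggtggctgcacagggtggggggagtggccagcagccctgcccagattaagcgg
Col6a1: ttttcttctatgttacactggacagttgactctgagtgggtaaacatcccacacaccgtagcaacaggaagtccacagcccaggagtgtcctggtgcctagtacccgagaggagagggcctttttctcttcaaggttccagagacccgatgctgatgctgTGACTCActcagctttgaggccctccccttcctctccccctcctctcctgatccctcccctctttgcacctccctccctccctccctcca
Itgb1: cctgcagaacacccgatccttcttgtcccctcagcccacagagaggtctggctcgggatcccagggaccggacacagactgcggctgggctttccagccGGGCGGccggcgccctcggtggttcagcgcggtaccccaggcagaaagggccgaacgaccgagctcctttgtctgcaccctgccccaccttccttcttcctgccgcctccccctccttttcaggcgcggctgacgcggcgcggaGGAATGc

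Of the 32 genes 26 had such a window, and some had more than 1. A gene counted if any of its windows matched, whereas the shares of all windows are per window, so these are not like for like. TGANTCA matched in 1 of the 26, Col6a1, where 6.75% of all 32851 RefSeq windows hold it. GGGCGG matched in 14 of 26 (32.7% of all windows) and CATTCC in 3 of 26, Itgb1, Lamb3 and Col18a1 (12.6% of all windows). The Col4a4 window held none of the 3. These matches describe letters in the windows and nothing about binding.

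The next comparison asked what 6 h of LPS had changed. None of the 32 genes passed, where 0.0636% of all tested genes were called by limma. An unadjusted limma p below 0.05 was found in 5 of the 32 and in 2163 of all 9431 tested genes. With the replicate block 5 were higher and 1 lower, 18.8% where 24% of all tested genes were called. The median log2 change was 0.02 over the 32 genes and -0.11 over all tested genes.

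The genes higher with the block were Itgb1, Itgav, Itga1, Lamb3 and Col4a3. Itgb1 differed by 0.69 log2 (adjusted p = 0.131, or 0.0316 with the block), and all 3 arrays at 6 h lay above the unstimulated ones. Itgav differed by 0.57 log2 (0.185, or 0.0381 with the block) and Itga1 by 0.49 log2 (0.235, or 0.0429 with the block), both with overlapping groups. Col4a3 differed by 0.68 log2 (0.141, or 0.0425 with the block) without overlap, and Lamb3 by 0.51 log2 (0.425, or 0.0418 with the block). Col6a1 was the gene lower with the block, at a log2 change of -0.64 (0.131, or 0.045 with the block), and its groups did not overlap. The comparisons with tolerant and with 6 h cells share the unstimulated arrays, so their values are set side by side and not correlated.

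Against cells at 6 h of LPS, 4 genes rose in tolerant cells (Col6a1, Lamc1, Col7a1 and Itgav) and 3 fell (Col4a4, Col4a3 and Fn1), 21.9% of the 32. Of all tested genes 13.1% were called, 7.1% higher and 6.02% lower. With the replicate block 10 rose and 4 fell, 43.8% where 31.7% of all tested genes were called. Again Col7a1 and, with the block, Itgb3 are in these counts although they met the level minimum only with the tolerant arrays. The median log2 change was 0.31 over the 32 genes and 0.01 over all tested genes.

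Col6a1 was 7.54-fold higher in tolerant cells than at 6 h (adjusted p = 8.96e-05). Col7a1 read 5.61, 5.63 and 5.26 in tolerant cells and 4.37, 3.72 and 3.83 at 6 h, and is given without a test for the reason above. Col4a4 was 3.84-fold lower (adjusted p = 0.000319) and Col4a3 3.49-fold lower (0.0015). Lamc1 rose 3.0-fold (adjusted p = 0.0321), Itgav 1.79-fold (0.0451), and Fn1 fell 1.77-fold (0.0382). These last 3 calls were the least firm. Leaving out single arrays gave an adjusted p of up to 0.104 for Lamc1, 0.141 for Itgav and 0.14 for Fn1. The Lamc1 call was kept without unstimulated replicate 1 or 3 alone, the Itgav call without unstimulated replicate 1 or 6 h replicate 2, and the Fn1 call without unstimulated replicate 1, 6 h replicate 2 or tolerant replicate 1. With the block Itga3, Itgb3, Itgb5, Itgb6, Lama5 and Lamb3 also rose, by 0.53 to 1.54 log2, and Itgb3bp fell by 0.98 log2. As said above, Itgb3 met the level minimum only through the tolerant arrays.

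Partners of integrins outside the family were taken from lists of known genes, to be read against 14% higher, 12.2% lower and, with the block, 48.6% called among all tested genes. Of 19 measured focal adhesion genes, which link integrins to actin, none rose and 2 fell in tolerant against unstimulated cells, and with the block 2 rose and 7 fell (median -0.30 log2). Rsu1, the gene of a protein of the integrin-linked kinase complex, fell 2.92-fold (adjusted p = 0.00139), and the talin gene Tln2 2.21-fold (0.00279). Of 8 measured hemidesmosome and tetraspanin genes 2 rose and none fell, and with the block 2 rose and 1, Cd151, fell (median 0.27 log2). The shares called in these 2 lists were near or below those of all genes. The tetraspanin gene Cd9 rose 3.48-fold, with 12.59, 12.38 and 11.98 in tolerant cells against 10.58, 10.71 and 10.28 in unstimulated cells (adjusted p = 0.000577). Cd47, the gene of an integrin-associated protein, rose 1.88-fold (0.00763).

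Among 8 measured genes of other basement membrane proteins none rose and 3 fell in tolerant cells, where 12.2% of all tested genes were lower, and with the block none rose and 4 fell (median -0.53 log2). Dag1, the dystroglycan gene, whose product binds laminin, fell 2.34-fold (adjusted p = 0.0256), the netrin gene Ntn4 2.28-fold (0.00421), and Npnt, of the integrin ligand nephronectin, 1.90-fold (0.0136). Of 6 measured genes of other matrix receptors 1 rose and none fell, with the block as without it. It was Plaur, the urokinase receptor gene, which rose 1.49-fold (adjusted p = 0.0366 without the block). At 6 h none of the genes of these 4 lists passed without the block. With it, 1 focal adhesion gene was higher and 2 lower, 1 hemidesmosome and tetraspanin gene higher and 2 lower, 1 basement membrane gene lower and 1 matrix receptor gene higher, where 24% of all tested genes were called.

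Markers of other cell types were read beside these results. Of 13 fibroblast and mesenchymal markers Vim, Cdh2 and S100a4 passed the minimum. None was called in tolerant against unstimulated cells, with or without the block. Pdgfra, Pdgfrb, Thy1, Dcn, Lum and Acta2 were at most 3.24 on any array. The summed linear intensity of the 13 markers was 10344 to 11686.5 in tolerant cells and 11138 to 12423 in unstimulated cells. Vim made up most of this sum, so it tells little of the other markers. None of 7 endothelial markers passed. Of 12 leukocyte markers Csf1r and Spi1 passed and both fell in tolerant cells, with and without the block. Spi1 met the minimum only with the unstimulated arrays. Ptprc was at most 3.75. The summed intensity was 315.0 to 692 in tolerant against 1212 to 2436 in unstimulated cells, and Csf1r made up most of it. Of the epithelial markers Cdh17, Ocln and Krt18 rose in tolerant cells and Hnf4a fell 3.49-fold, and with the block Krt7 and Elf3 also rose. These marker calls are to be read against 14% higher, 12.2% lower and, with the block, 48.6% called among all tested genes. Epcam reached log2 4 on the 3 tolerant arrays only, at 5.31, 6.07 and 5.53 against 2.92, 3.24 and 2.93 on the unstimulated ones, so it was tested only through the group where it was high and is given without a test. The part of these marker changes in the results above was not tested.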

How the data were processed

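RNA of 9 cultures, labelled as biological replicates, was hybridised to 9 Affymetrix mouse arrays. The deposited values are linear intensity per probe set, made by the authors with GCRMA per the submitters' processing notes (version not given in the sources used here). Here log2 was taken with no pseudocount. The probe set of highest overall mean stood for its gene, and the 9431 of 18193 genes that reached log2 4 on 3 or more arrays were tested with limma 3.58.1 in R 4.3.3 (lmFit, eBayes), in 1 fit of the 3 conditions with 6 residual degrees of freedom and Benjamini-Hochberg adjustment per comparison. The method was tested on simulated data, but as the settings and outcome are not given here, no support is drawn from that. The number of arrays limits the precision, and with 3 against 3 an exact permutation test could not go below p = 0.1. Genes named with full values are the members that passed, and up to the 4 called genes of each related list. The members and lists were chosen with earlier results of these data known. Where every array of a group lay below log2 4, a fold is a lower bound against that level.

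The replicate numbers come from the sample labels. Deviations from condition means correlated at 0.16 to 0.84 between arrays of the same number and at 0.21 to 0.73 between replicates 2 and 3, so that replicate 1 alone stood apart. Every same-numbered pair correlated above 0.1, and by that rule the numbers were taken to pair the arrays. The rule could not tell replicates 2 and 3 apart, because deviations within a condition cancel out once replicate 1 stands apart. Unstimulated replicate 3 correlated at 0.16 with 6 h replicate 3 and at 0.73 with 6 h replicate 2. The pairing of replicates 2 and 3 is therefore an assumption. The fit with that block is given where it changes a call or moves a count by over 1.5 times.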

Additional observations from a re-analysis of the deposited data

How the results depend on the processing

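Of the 18 calls of single genes, 9 were kept under every alternative and 0 reversed: Col4a3, Col4a4 and Col6a1 in both comparisons of tolerant cells, and Col7a1, Itgav and Itgb1bp1 in tolerant against unstimulated cells. The Col7a1 calls are in these numbers although the gene met the level minimum only through the tolerant arrays. With the replicate block the genes called higher numbered 14 (tolerant against unstimulated), 5 (6 h LPS against unstimulated, with 1 lower) and 10 (tolerant against 6 h LPS), and all genes called numbered 4586, 2267 and 2985, against 2470, 6 and 1238 without it. With replicates 2 and 3 only, 12 and 9 genes were higher in tolerant cells against unstimulated and 6 h cells, and 2126 of all genes were called in the second of these. Against 6 h cells 2 genes were higher without a level minimum and 2 with the mean over probe sets, and at 6 h these settings called 37 and 14 of all genes. Leaving out 1 array in turn gave 5 to 8 genes higher and 3 to 4 lower in tolerant against unstimulated cells, with 1400 to 2908 of all genes called. In tolerant against 6 h cells it gave 1 to 6 higher and 2 to 3 lower, with 677 to 1282 of all genes, and at 6 h 0 to 0 in either direction, with 5 to 696 of all genes. The lowest counts for all genes in tolerant cells came without tolerant replicate 2, and the 696 came without 6 h replicate 3. The cause of these shifts was not tested. Genes near the level minimum (Itga2, Itga5, Itga7, Itgb3, Col7a1 and Col16a1) have signals close to background, which limits their folds.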

Other observations

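Other matrix glycoproteins had 6 measured genes, among them Tnc, which is left out of the calls as said below. Ccn2, Ccn1 and Ecm1 rose in tolerant against unstimulated cells and none fell, where 14% of all tested genes were higher and 12.2% lower. With the replicate block Thbs1 also rose (adjusted p = 0.00128, or 0.054 without it), where 48.6% of all tested genes were called. Ccn2, which encodes connective tissue growth factor, an integrin-binding matrix protein, read 9.94, 9.68 and 9.16 in unstimulated cells, 9.03, 8.76 and 9.03 at 6 h, and 12.41, 12.01 and 11.90 in tolerant cells. It rose 5.72-fold over unstimulated cells (limma adjusted p = 0.000242). Its relative Ccn1 rose 3.11-fold (0.00026), and Ecm1, of an extracellular matrix protein, 5.20-fold (0.00578). Tnc, the tenascin C gene, read 4.84, 5.02 and 5.48 in tolerant cells against 3.59, 3.73 and 3.55 in unstimulated cells. It met the level minimum only through the tolerant arrays and is given without a test or a count. At 6 h none of these genes passed without the block, and with it Ecm1 (adjusted p = 0.0319), Ccn1 (0.0331) and Ccn2 (0.0379) were lower, where 24% of all tested genes were called. For Ccn1 this rested on the probe set used, at -0.59 log2, since its other probe sets differed by -0.28, 0.11 and 0.24 log2.

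Of 16 measured genes of collagen modification and crosslinking 2 rose and 2 fell in tolerant against unstimulated cells, and with the replicate block 2 rose and 6 fell (median log2 change -0.08). These shares were near those of all tested genes, 26.2% called without the block and 48.6% with it. Plod2, a lysyl hydroxylase gene, rose 2.93-fold (limma adjusted p = 0.00113), and P4ha1, of a prolyl hydroxylase subunit, 1.61-fold (0.00968). Pcolce2, the gene of an enhancer of procollagen processing, fell at least 3.19-fold (0.000151), with 2.77, 2.88 and 2.58 in tolerant cells against 5.49, 6.06 and 5.46 in unstimulated cells. Ppib, a prolyl isomerase gene of the endoplasmic reticulum, fell 1.60-fold (0.024).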
